A study of Mus musculus with 9 samples.

Results

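The constitutive proteasome genes are described here in BeCon cells, a mouse ovarian tumor line: the protein-coding genes of the Psma, Psmb, Psmc, Psmd, Psme, Psmf and Psmg families. They were chosen by gene symbol, with earlier results of these data known. The 5 interferon-inducible members, Psmb8, Psmb9, Psmb10, Psme1 and Psme2, were set apart and serve as a comparison. The rule found 44 genes among the 48230 genes analysed, and 41 of them were expressed enough to be tested. RNA was measured by strand-marking mRNA sequencing in 9 libraries. Of these, 4 came from tumor cells in the ascites of BeCon-bearing B6 mice given vehicle and 4 from such mice given YKL-05-099, an inhibitor of salt-inducible kinases, and the cells of both groups had been sorted as viable, CD45-negative and MHC class I-positive. A single further library holds BeCon cells grown in vitro, with no sort stated. The labels give neither dose, schedule nor the age of the mice, nor do they tie a library to a single animal. P-values therefore reflect only how these libraries vary, which may be technical. Vehicle and treated libraries carry different number prefixes in their names, and whatever that prefix stands for cannot be told apart from treatment.

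The proteasome is the protease that degrades ubiquitin-tagged proteins. Its 20S core is a barrel of alpha rings, which gate the entry, and beta rings, which hold the catalytic sites. The 19S cap recognises, unfolds and feeds in substrates through its ring of ATPases, and dedicated chaperones assemble both parts. Under interferon, Psmb8, Psmb9 and Psmb10 replace the constitutive catalytic subunits Psmb5, Psmb6 and Psmb7, which changes the peptides offered on MHC class I. The transcription factor NRF1, encoded by Nfe2l1, is known to raise the constitutive genes together when proteasome activity falls short.

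Levels are deposited FPKM, which count sequenced fragments relative to transcript length and library size. Approximate depth was 23000000 to 35000000 fragments per library, and between 11421 and 11893 genes per library reached 1 FPKM. Vehicle replicate 4 stood apart from the other vehicle libraries in the interferon-inducible genes, where it lay at or near the treated levels, so results that rest on it are given with and without it. It was singled out for its values, so leaving it out widens such differences by that choice. Differences and p-values without it only describe the libraries left and are not used as calls. Transcripts of blood cells were present despite the CD45-negative gate and differed between the groups. The summed FPKM of 16 pan-leukocyte genes was 26.1 to 51.9 in the vehicle libraries, 10.4 to 19.7 in the treated ones and 12.4 in culture. Of the 7 tested, 5 fell. In culture Cytip was at 5.67, Ptpn6 at 4.23, Itgb2 at 1.00 and Coro1a at 0.900 FPKM, which made up most of the sum there. The cultured line itself thus expressed genes of this list, so its sum and its mean do not mark leukocytes alone. Ptprc, which encodes CD45, was at 0.346 to 0.772 FPKM in the vehicle libraries and 0.031 to 0.276 in the treated ones, and it was listed at 0 in culture. Over all 11788 tested genes 15.1% were called lower, which is the share to set beside each list here. The 12 macrophage genes summed to 238 to 555 FPKM against 30.3 to 105, with 8 of 9 tested lower. The 7 erythroid genes summed to 244 to 1487 FPKM against 1.45 to 92.8, with all 5 tested lower. Of the B and plasma cell genes all 3 tested fell (8 genes summing to 14.2 to 53.7 FPKM against 0.908 to 1.71, and 0.738 in culture). Fibroblast genes, which a CD45-negative gate does not remove, summed over 8 genes to 656 to 708 FPKM with vehicle, 555 to 634 with treatment and 338 in culture. Most of each sum was Dcn, which was not called (499 to 544 FPKM with vehicle, 463 to 531 with treatment, 243 in culture). Lum reached at most 0.279 FPKM in mice and Dpt 0.0415. Of the 6 tested, 5 fell: Col1a1, Col1a2, Col3a1, Pdgfra and Loxl1. The cultured line itself had Col1a1 at 32.2, Loxl1 at 28.0, Col3a1 at 23.6, Pdgfra at 10.5 and Col1a2 at 0.0668 FPKM, so the list does not mark fibroblasts alone. The part of these transcripts in the results was not tested. A fit with the pan-leukocyte level as a covariate was run. That level, a mean log2(FPKM + 1), was 1.125 to 1.663 in the vehicle libraries and 0.460 to 0.859 in the treated ones. The groups did not overlap in it, so the fit cannot separate it from treatment, and nothing is concluded from calls lost there. Of 10 epithelial and Mullerian tumor genes, 7 were at 1 FPKM or more in every mouse library. The rest were near silent there: Pax8 reached at most 0.173 FPKM, Epcam 0.624 and Cdh1 0.0511. In culture 5 of the 10 reached 1 FPKM, with Krt7 at 0.0804 and Muc16 at 0.112.

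The constitutive genes were expressed at high and steady levels. The 41 tested genes averaged between 16.6 and 223 FPKM over the 8 mouse libraries, with a median of 57.7, against 14.6 over all genes tested. Together they made up 0.612% to 0.674% of the summed FPKM in the vehicle libraries and 0.623% to 0.664% in the treated ones. The coefficient of variation over the 8 mouse libraries, treatment included, had a median of 4.77%, and it ran from 2.75% for Psmd4, a ubiquitin receptor of the cap, to 16.3% for Psmd8. Over all tested genes the median was 10.8%, and 39 of the 41 constitutive genes lay below it. The other 3 of the 44 were close to silent and were not tested. Psma8, an alpha subunit of the testis, reached at most 0.0719 FPKM and was listed at 0 in 4 of the 9 libraries. Psmb11, a beta subunit of the thymic cortex, was listed at 0 in 7 of 9. Psme2b, whose sequence is close to that of Psme2, lay between 0.196 and 0.765 FPKM, a value that is uncertain because reads of the 2 genes can be shared.

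**Figure D1:**
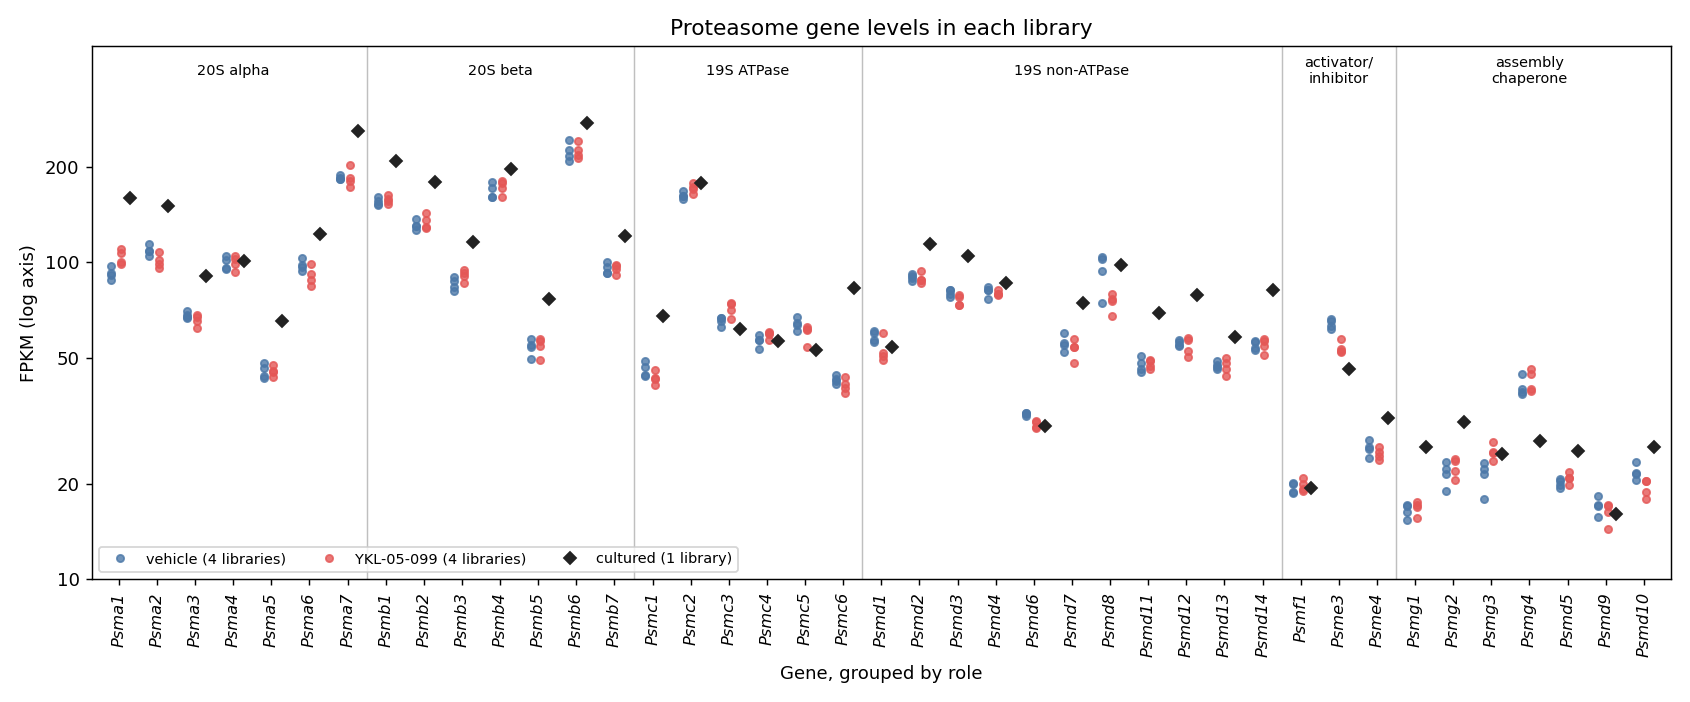
FPKM (log axis) of the 41 tested constitutive proteasome genes in each library, grouped by role. Each point is 1 library: 4 vehicle, 4 YKL-05-099 and 1 cultured; the vehicle and treated points lie close together for most genes, and the cultured point is above all 8 of them for 28 genes.

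Within each role group the levels differed by a factor of 2.48 to 4.13 between the highest and the lowest gene. The beta ring held the most abundant transcript, Psmb6, at a mean of 223 FPKM over the mouse libraries, and the alpha ring was led by Psma7 at 185. The cap ATPases ranged from Psmc2 at 167 down to Psmc6 at 41.7, and the other cap subunits from the scaffold Psmd2 at 89.3 to Psmd6 at 32.0. Assembly chaperones were the lowest group, from Psmg4 at 41.3 to Psmd9 at 16.6.

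Promoter sequence was available for 36 of the 44 genes, in 38 windows of 300 bases (250 before to 50 after the start site) from RefSeq, build GRCm38.p6, and 13 motifs, chosen after the data had been seen, were searched on both strands. The stretches printed here are those of 2 catalytic subunits with the core of the antioxidant response element, to which NRF1 binds, and of 3 of the 5 genes whose level differed under treatment. Capitals mark the motif: TGACNNNGC in Psmb5 and Psmb6, TGACGT (the shorter core of the cAMP response element, which overlaps the former in Psmb5) in Psma1 and Psmd8, and CCGGAAG (an ETS site) in Psme3.
Psmb5: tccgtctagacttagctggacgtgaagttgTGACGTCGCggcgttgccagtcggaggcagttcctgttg
Psmb6: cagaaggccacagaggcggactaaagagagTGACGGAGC
Psma1: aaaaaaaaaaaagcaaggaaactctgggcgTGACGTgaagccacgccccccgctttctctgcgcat
Psmd8: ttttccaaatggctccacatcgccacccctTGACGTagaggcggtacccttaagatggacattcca
Psme3: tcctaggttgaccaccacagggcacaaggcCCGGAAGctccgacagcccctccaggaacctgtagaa
They lie at chr14:54618004-54618072 on the minus strand (Psmb5), chr11:70525318-70525356 on the plus strand (Psmb6), chr7:114276241-114276306 on the minus strand (Psma1), chr7:29180773-29180838 on the minus strand (Psmd8) and chr11:101316076-101316142 on the plus strand (Psme3). The motif begins 47 bases before the start site in Psmb5, 9 in Psmb6, 160 in Psma1, 135 in Psmd8 and 107 in Psme3, whose window holds another CCGGAAG on the reverse strand, 2 bases past the start site. TGACNNNGC was found in 6 of the 38 windows, or 15.8%, against 12.4% of the 32851 windows of all genes. The G variant of this core, TGAGNNNGC, was found in 13 windows, or 34.2%, against 17.6%. TGACGT stood in 4 windows (Psma1, Psma5, Psmb5 and Psmd8), or 10.5%, against 7.51%. The full cAMP response element, TGACGTCA, stood in 0 of the 38 windows, against 1.79% of all windows. CCGGAAG stood in 15 windows, or 39.5%, against 8.86%. Of the 4 genes with TGACGT, Psma1 was called higher and Psmd8 lower under treatment, and Psma5 and Psmb5 were not called, with the values given further on. Whether any motif bears on these differences was not tested. Counts of the other motifs searched are not given here. These matches describe the letters in the windows, and no binding was measured.

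Under YKL-05-099 most constitutive proteasome genes stayed near their vehicle level. Of the 41 tested, 5 (12.2%) passed the test, where 43.2% of all 11788 tested genes did. Psma1 and Psmg3 rose, which is 4.88% of the genes against 28.0% of all tested genes called higher. Psmd8, Psme3 and Psmd10 fell, which is 7.32% against 15.1%. The test was limma on log2(FPKM + 1) with Benjamini-Hochberg adjustment over all tested genes, called under 0.05. The median difference of the 41 genes was 0.001 log2 units, against 0.054 over all tested genes, and the median size of the difference regardless of sign was 0.0553 against 0.165. For 31 of the 41 the difference lay within 0.1 log2 units, and the 95% intervals of the 36 genes that were not called all lay between -0.28 and 0.23. The median standard error was 0.0483 log2 units, below the 0.0697 of all genes. The 2 groups did not overlap for 5 genes (Psma1, Psmg3, Psme3, Psmd10 and Psmd6), or 12.2%, against 40.0% of all tested genes.

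**Figure D2:**
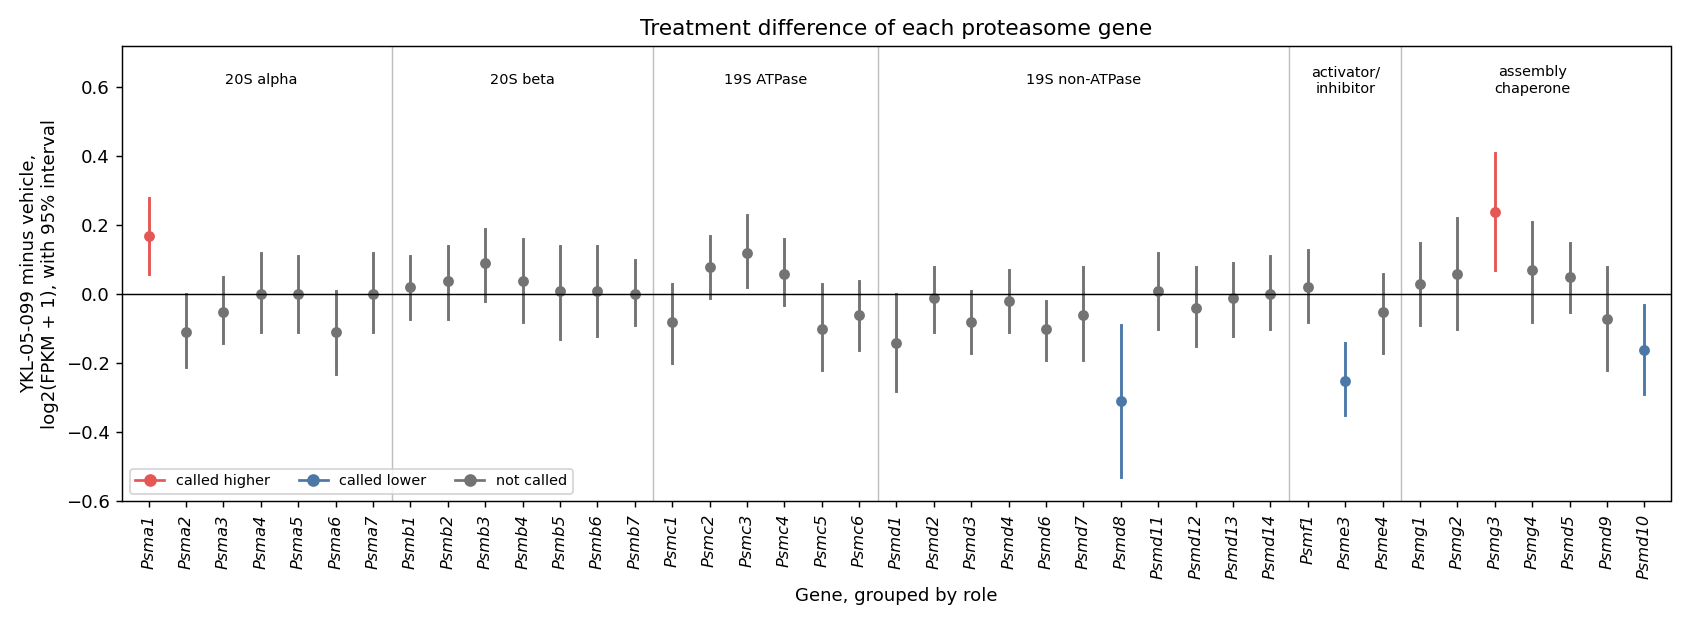
Difference between YKL-05-099 and vehicle in log2(FPKM + 1) for each tested gene, with its 95% interval from limma (4 libraries per group). Psma1 and Psmg3 were called higher, Psmd8, Psme3 and Psmd10 lower, and the intervals of the other 36 genes lie between -0.28 and 0.23.

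How the values are scaled sets how these differences split. With median-of-ratios scaling no constitutive gene was called higher and 10 were called lower (Psma2, Psma6, Psmc1, Psmc5, Psmd1, Psmd3, Psmd6, Psmd8, Psmd10 and Psme3), with a median of -0.058, and 14 of the 41 had an unadjusted p under 0.05. Over all 11788 tested genes the deposited scale gave 3304 higher and 1785 lower calls, and that scaling gave 2497 and 2466. With that scaling 24.4% of the 41 were called, all lower, against 42.1% of all tested genes in either direction. The share of all genes with an unadjusted p under 0.05 is not given here for that scaling. With the mean level of the pan-leukocyte genes as a covariate, limma called 0 of the 41, and 1 had an unadjusted p under 0.05. In that fit the differences of the genes called without it were 0.24 for Psma1, 0.09 for Psmg3, -0.08 for Psmd8, -0.21 for Psme3 and -0.04 for Psmd10, the median standard error was 0.10 log2 units, and 551 of all genes were called. The covariate itself differed between the groups without overlap, so this fit cannot separate it from treatment. In bulk libraries, a changed number of cells of a type and a changed amount of RNA per cell cannot be told apart.

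Of the 7 tested genes of the alpha ring, only Psma1 was called. Psma1 (ENSMUSG00000030751, chr7:114264606-114276118) was at 91.1, 97.5, 88.0 and 92.3 FPKM in the vehicle libraries, 100.25, 98.8, 110.01 and 106.7 in the treated libraries and 159 in culture. Every treated library was above every vehicle library, though the gap between the closest pair was small. The difference was 0.17 log2 units (SE 0.0494, adjusted p = 0.0193). It missed the threshold with median-of-ratios scaling (0.11, adjusted p = 0.103), without vehicle replicate 3 (adjusted p = 0.0580) and without YKL-05-099 replicate 3 (adjusted p = 0.0558). The most abundant alpha gene, Psma7, which lies in the outer ring that gates the core, was at 184, 188, 183 and 183 FPKM with vehicle and 181, 173, 202 and 184 with treatment, so the groups overlapped. Psma5, the lowest of the ring, was at 48.2, 46.3, 43.7 and 43.2 FPKM against 43.3, 45.0, 45.4 and 47.3, also overlapping. The remaining alpha genes, Psma2, Psma3, Psma4 and Psma6, differed by -0.11 to 0.00 log2 units and were not called.

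No gene of the beta ring was called, and all 7 differences lay between 0.00 and 0.09 log2 units. Psmb5, which carries the chymotrypsin-like site, was at 49.5, 57.2, 54.2 and 54.9 FPKM with vehicle and 54.3, 56.2, 57.3 and 49.3 with YKL-05-099. Its difference was 0.01 log2 units, with a 95% interval from -0.13 to 0.14. Psmb6, which carries the caspase-like site, was at 216, 242, 208 and 225 FPKM against 225, 212, 241 and 217, a difference of 0.01 (-0.12 to 0.14). Psmb7, which carries the trypsin-like site, was at 92.5, 99.8, 92.6 and 96.2 FPKM against 98.1, 91.2, 94.8 and 97.3, with an interval from -0.09 to 0.10. All 3 catalytic genes thus had overlapping groups and intervals that reach no further than 0.14 log2 units either way. The structural beta genes Psmb1, Psmb2, Psmb3 and Psmb4 were not called either, and Psmb3 had the largest difference among them at 0.09.

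None of the 6 ATPases of the 19S cap was called. The highest, Psmc2, was at 161, 168, 161 and 159 FPKM with vehicle and 170, 164, 173 and 178 with treatment, which overlap. The lowest, Psmc6, was at 43.9, 42.3, 42.9 and 41.2 FPKM against 43.4, 38.6, 41.2 and 40.2, which also overlap. Psmc3 had the largest difference of the ring, 0.12 log2 units, and missed the threshold (adjusted p = 0.0583). Psmc5 differed by -0.10, Psmc1 by -0.08 and Psmc4 by 0.06 (none called).

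Among the 11 other subunits of the cap only Psmd8 fell. Psmd8 (ENSMUSG00000030591, chr7:29174188-29180701), a subunit of the lid, was at 102, 93.7, 103 and 74.4 FPKM with vehicle and 76.3, 75.3, 79.4 and 67.8 with YKL-05-099, and at 97.7 in culture. Vehicle replicate 4 lay inside the treated range, while the other 3 vehicle libraries lay above it. The difference was -0.31 log2 units (SE 0.0986, adjusted p = 0.0291), and without vehicle replicate 4 it was -0.41 (adjusted p = 0.000604). The call was lost without vehicle replicate 1, 2 or 3 and without YKL-05-099 replicate 1, 2 or 4 (adjusted p 0.0516 to 0.0797), and without the filter on low values (adjusted p = 0.0871). Psmd6, the lowest subunit of the group, was at 33.5, 33.4, 32.7 and 33.1 FPKM against 30.03, 30.3, 31.6 and 31.4. Its groups did not overlap, yet the difference of -0.10 log2 units missed the threshold (adjusted p = 0.0503). Psmd2, the highest, was at 87.0, 90.7, 89.2 and 91.8 FPKM against 87.9, 85.9, 87.6 and 93.9, with overlap. The other 8 (Psmd1, Psmd3, Psmd4, Psmd7, Psmd11, Psmd12, Psmd13 and the deubiquitinase Psmd14) were not called, with Psmd1 the farthest from zero at -0.14.

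The smallest adjusted p of the constitutive set was that of Psme3, which encodes PA28gamma, a nuclear activator that opens the 20S core without ubiquitin. Psme3 (ENSMUSG00000078652, chr11:101316213-101323537) was at 65.3, 66.2, 62.7 and 61.5 FPKM with vehicle, 52.0, 53.4, 52.5 and 57.4 with treatment and 46.1 in culture. All treated libraries lay below all vehicle libraries, and the group means were 64.0 ± 2.21 and 53.8 ± 2.47 FPKM (SD, n = 4). The difference was -0.25 log2 units (SE 0.0456, adjusted p = 0.00221). The call held when each library was left out in turn and under every scaling tried, and it was lost with the pan-leukocyte covariate (-0.21, adjusted p = 0.243). Psme4, which encodes the activator PA200, differed by -0.05 and was not called. The inhibitor gene Psmf1, lowest of this group, was at 20.1, 20.03, 18.9 and 18.7 FPKM against 20.04, 18.97, 19.3 and 20.9, with overlap. The sister activator genes Psme1 and Psme2, which are interferon-inducible and encode PA28alpha and PA28beta, moved the other way: both rose, as given with the inducible genes.

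Of the 7 assembly chaperone genes, 1 rose and 1 fell. Psmg3 (ENSMUSG00000029551, chr5:139823592-139826885), which helps build the alpha ring, was at 17.97, 22.3, 21.4 and 23.3 FPKM with vehicle and 25.0, 23.6, 25.2 and 27.1 with YKL-05-099, and at 24.8 in culture. The closest pair of libraries was 23.3 against 23.6, so the groups only just separated. The difference was 0.24 log2 units (SE 0.0775, adjusted p = 0.0303), and it missed the threshold with median-of-ratios scaling (0.18, adjusted p = 0.0863), with quantile normalization (0.19, adjusted p = 0.0702), without the filter on low values (adjusted p = 0.0769), without vehicle replicate 1 or 3 and without YKL-05-099 replicate 1, 3 or 4 (adjusted p 0.0509 to 0.0776). Psmg3 overlaps the protein-coding gene model Gm26938 on the same strand, so reads of the 2 cannot be separated with certainty. Psmd10 (ENSMUSG00000031429, chrX:140948429-140956728), which encodes gankyrin, a chaperone of the cap base, was at 21.7, 23.5, 20.6 and 21.4 FPKM against 17.9, 18.9, 20.4 and 20.4, and at 26.1 in culture. Its groups were separate by a narrow margin, with a difference of -0.16 log2 units (SE 0.0581, adjusted p = 0.0476) that missed the threshold without vehicle replicate 1, 2 or 4 and without YKL-05-099 replicate 1 or 2 (adjusted p 0.0552 to 0.123), rescaled to TPM (0.0864) and without the filter on low values (0.0814). Psmg4, the highest chaperone gene, was at 39.8, 44.4, 38.9 and 38.3 FPKM against 46.0, 39.2, 44.3 and 39.7, and Psmd9, the lowest, at 17.1, 18.3, 15.8 and 17.0 against 14.4, 16.3, 17.0 and 17.2. Both overlapped between the groups, and Psmg1, Psmg2 and Psmd5 were not called. Psmd9 overlaps the protein-coding Hpd on the opposite strand, and whether the authors' counting used strand is not stated. Among the other tested genes, Psma2, Psma4, Psmb7, Psmc3, Psmd1, Psmd5 and Psmd13 also overlap a protein-coding gene.

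Most of the interferon-inducible counterparts rose. Of the 5, Psmb8, Psmb10, Psme1 and Psme2 rose, against 28.0% of all tested genes, and Psmb9 was not called. Psmb8 was at 33.5, 38.3, 32.6 and 57.4 FPKM with vehicle and 61.6, 56.9, 60.7 and 56.5 with YKL-05-099 (0.57 log2 units, SE 0.149, adjusted p = 0.0123). Psmb10 was at 25.3, 25.0, 25.8 and 39.3 FPKM against 39.9, 36.6, 46.6 and 38.3 (0.49, SE 0.137, adjusted p = 0.0167), a call that was lost without vehicle replicate 2 (0.43, adjusted p = 0.0509). In both, vehicle replicate 4 lay within the treated range and the other 3 vehicle libraries below it, and without that library the differences were 0.75 (adjusted p = 2.96e-05) and 0.64 (adjusted p = 0.000163). Psmb9 followed the same layout at lower levels, 6.15, 7.92, 6.71 and 15.5 FPKM against 16.3, 11.8, 12.1 and 14.1, and its difference of 0.61 log2 units missed the threshold (adjusted p = 0.0582). Without vehicle replicate 4, the contrary library, it was 0.87 (limma adjusted p = 0.000345), which describes the libraries left and is no call. Psme1 was at 88.2, 90.5, 87.9 and 101.4 FPKM against 105.4, 110.9, 120.7 and 108.7, with no overlap (0.27, SE 0.0594, adjusted p = 0.00483). Psme2 was at 66.1, 67.8, 63.1 and 75.2 FPKM against 84.3, 85.0, 85.8 and 72.6 (0.26, SE 0.0688, adjusted p = 0.0119), and here YKL-05-099 replicate 4 fell inside the vehicle range. With the pan-leukocyte covariate limma called 0 of the 5, with differences of 0.32 for Psmb8 (adjusted p = 0.587), 0.21 for Psmb10 (0.702), 0.28 for Psme1 (0.234), 0.33 for Psme2 (0.226) and -0.08 for Psmb9 (0.935).

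The level of each inducible catalytic gene was then set against its constitutive partner within each library. Psmb8 stood at 67.7%, 67.0%, 60.2% and 104.6% of the Psmb5 FPKM in the vehicle libraries and at 113.5%, 101.2%, 105.8% and 114.7% in the treated ones. On the log2(FPKM + 1) scale the ratio was 0.56 higher with treatment (exact permutation test over the 8 libraries, two-sided, p = 0.0571, adjusted over the 3 pairs 0.114). Psmb9 stood at 2.84%, 3.28%, 3.22% and 6.88% of Psmb6 against 7.26%, 5.54%, 5.02% and 6.505%, a difference of 0.60 (exact permutation p = 0.114, adjusted 0.114). Psmb10 stood at 27.3%, 25.1%, 27.8% and 40.9% of Psmb7 against 40.7%, 40.1%, 49.1% and 39.3%, a difference of 0.49 (exact permutation p = 0.114, adjusted 0.114). No pair passed the threshold with all libraries, and vehicle replicate 4 had a treated-like ratio in each. Without it the differences were 0.73, 0.86 and 0.64. The groups then no longer overlapped and each exact permutation p was 0.0286, the smallest that 3 against 4 libraries can give, so these values are only a description of the libraries left after the contrary one was removed. In the cultured library the inducible gene stood at 15.9% of Psmb5, 0.355% of Psmb6 and 10.9% of Psmb7, below every mouse library.

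**Figure D3:**
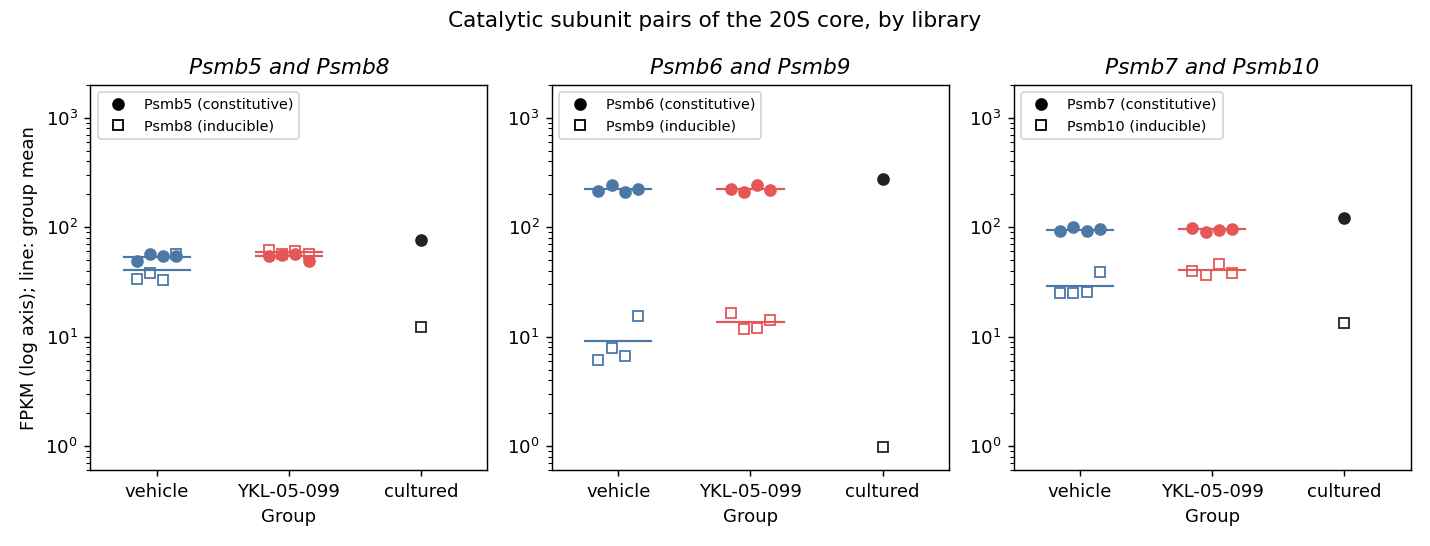
FPKM (log axis) of the constitutive (filled circles) and inducible (open squares) gene of each catalytic pair, with 1 point per library and a line at each group mean (vehicle, YKL-05-099; the cultured group is 1 library). The constitutive genes overlap between the mouse groups, while the inducible genes are higher in the treated libraries and in vehicle replicate 4, and lowest in culture.

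In culture the constitutive genes were mostly higher than in the cells from mice. The cultured library has no replicate, so these values compare libraries and carry no test. For 28 of the 41 genes (68.3%) its level was above all 8 mouse libraries, against 37.4% of the 12296 genes compared, and for 4 (9.76%) it was below all 8, against 36.2%. The median difference from the vehicle mean was 0.33 log2 units, against 0.03 over all genes. No constitutive gene was both outside the mouse range and 1 log2 unit or more from the vehicle mean, where 9.62% of all genes lay that far above and 10.5% that far below. At 0.5 log2 units or more, 9 lay above and 1 below, against 21.9% and 21.5% of all genes. The constitutive genes summed to 3742 FPKM in culture, or 0.812% of the library, against 2956 to 3134 FPKM with vehicle and 2860 to 3090 with YKL-05-099.

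**Figure D4:**
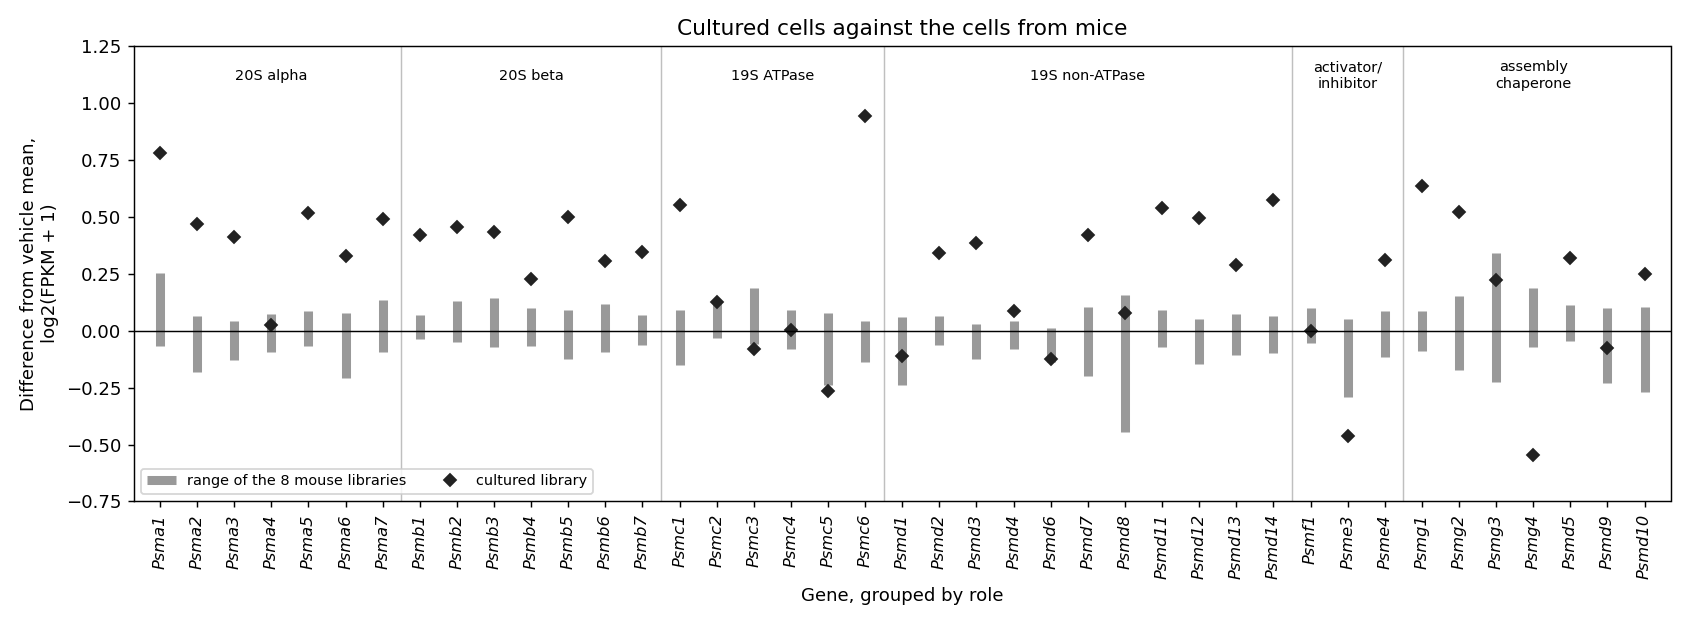
Difference of the cultured library (diamonds) from the vehicle mean in log2(FPKM + 1) for each tested gene, with the range of the 8 mouse libraries as bars. The diamonds lie above the bars for 28 genes, below for 4 (Psmc3, Psmc5, Psme3, Psmg4) and within for 9, and they run from -0.55 to 0.94.

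Genes of the 20S core were higher in culture almost throughout. All 7 beta genes and 6 of the 7 alpha genes were above the mouse range in culture, with Psma4 inside it, and the summed FPKM was 1.29 and 1.36 times the vehicle mean. Psmb5 was at 76.6 FPKM, Psmb6 at 275 and Psmb7 at 121. Of the other cap subunits, 8 of 11 were above the mouse range and none below. The ATPases did not move together: Psmc1 and Psmc6 lay above, Psmc3 and Psmc5 below, and Psmc2 and Psmc4 within. Of the chaperones 4 of 7 were above (Psmg1, Psmg2, Psmd5 and Psmd10) and Psmg4 was below. Psme4 was above, Psme3 below and Psmf1 within.

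The 5 largest upward differences from the vehicle mean were those of Psmc6 (82.7 FPKM against 42.6, 0.94 log2 units), Psma1 (159 against 92.2, 0.78), Psmg1 (26.1 against 16.5, 0.63), the deubiquitinase Psmd14 (81.7 against 54.6, 0.57) and Psmc1 (67.6 against 45.9, 0.55). Psmc6 was the lowest ATPase in the mouse libraries and the second highest in culture, after Psmc2. The 5 largest downward differences were those of Psmg4 (27.2 FPKM against 40.3, -0.55), Psme3 (46.1 against 64.0, -0.46), Psmc5 (53.0 against 63.9, -0.26), Psmd6 (30.3 against 33.2, -0.13) and Psmd1 (53.9 against 58.2, -0.11). Psmd6 and Psmd1 stayed inside the mouse range. The inducible genes went the other way from the core: all 5 were below every mouse library, with Psmb8 at 12.2 FPKM, Psmb9 at 0.976, Psmb10 at 13.2, Psme1 at 68.0 and Psme2 at 52.6. The treated-to-vehicle and cultured-to-vehicle differences share the vehicle libraries. For the 5 genes called under treatment they were, in that order, 0.17 and 0.78 for Psma1, 0.24 and 0.22 for Psmg3, -0.31 and 0.08 for Psmd8, -0.25 and -0.46 for Psme3, and -0.16 and 0.25 for Psmd10.

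Other genes of the pathway were counted from lists grouped by function. Of 12 proteasome factors without a Psm name, 2 rose and 0 fell by limma (28.0% and 15.1% of all tested genes), and median-of-ratios scaling gave 2 higher and 2 lower. Uchl5, a deubiquitinase of the cap, was at 13.1, 13.1, 13.6 and 11.4 FPKM with vehicle and 15.5, 14.8, 16.8 and 17.7 with treatment (0.32 log2 units, adjusted p = 0.00539). Zfand2a, which encodes the stress-inducible AIRAP, was at 23.7, 22.3, 23.5 and 24.4 FPKM against 28.5, 26.2, 26.1 and 26.8 (0.19, adjusted p = 0.00904). Neither overlapped between the groups. Pomp, the chaperone that matures the beta ring, was at 99.4, 104.8, 100.4 and 132 FPKM against 136, 106, 134 and 126, where vehicle replicate 4 was again the high one. It was not called (0.20, limma adjusted p = 0.137). Without that contrary library the difference was 0.30 (limma adjusted p = 0.0132), which is only a description of the libraries left.

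Among 15 regulators of proteasome genes and NRF1 processing factors, 2 rose and 2 fell (1 and 2 with median-of-ratios scaling), where 28.0% of all tested genes were called higher and 15.1% lower. The share called higher is thus below that of all genes. Nfe2l1 itself was at 97.7, 108.8, 100.98 and 108.2 FPKM with vehicle and 109.4, 110.3, 112.0 and 115.0 with treatment, and 115.7 in culture. Its groups were separate, but the difference of 0.10 log2 units missed the threshold (adjusted p = 0.0928). Its relative Nfe2l3 fell, from 54.2, 63.5, 52.6 and 41.9 FPKM to 32.4, 33.1, 36.4 and 38.5 (-0.57, adjusted p = 0.00262). Bach1, a repressor that binds antioxidant response elements, fell from 15.4, 14.5, 14.4 and 14.0 FPKM to 13.4, 12.0, 12.6 and 10.7 (-0.25, adjusted p = 0.0139). Both fell with no overlap. Syvn1, the ligase that keeps NRF1 low at the endoplasmic reticulum, was at 30.1, 27.3, 33.8 and 43.5 FPKM against 38.7, 64.4, 55.1 and 78.5 (0.77, adjusted p = 0.0119). Nfe2l2, which encodes NRF2, was at 153, 146, 148 and 170 FPKM against 174, 169, 170.3 and 173 (0.15, adjusted p = 0.0349), and it missed the threshold with median-of-ratios scaling (0.09, adjusted p = 0.168) and without vehicle replicate 1, 2 or 3 or any 1 treated library (adjusted p 0.0621 to 0.0938). The last 2 overlapped between the groups through vehicle replicate 4, and without it their differences were 0.90 (adjusted p = 0.00494) and 0.20 (adjusted p = 0.00247).

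Of 16 ubiquitin, activating-enzyme and substrate-shuttle genes, 3 rose and 0 fell by limma, and median-of-ratios scaling gave 2 higher and 3 lower. The share called higher is again below the 28.0% of all tested genes. The polyubiquitin gene Ubb was at 127, 141, 159 and 129 FPKM with vehicle and 182, 256, 248 and 178 with YKL-05-099 (0.62 log2 units, adjusted p = 0.00374), with no overlap between the groups. Ubxn7, an adaptor of the p97 segregase, was at 10.4, 9.17, 10.5 and 9.82 FPKM against 12.1, 12.7, 12.6 and 11.3 (0.27, adjusted p = 0.00512), also with no overlap. The shuttle gene Ubqln2 was at 14.9, 13.8, 15.0 and 14.4 FPKM against 16.8, 16.5, 14.9 and 18.2 (0.18, adjusted p = 0.0401), and it missed the threshold with median-of-ratios scaling (0.12, adjusted p = 0.123), with quantile normalization (0.11, adjusted p = 0.147) and when any 1 library other than YKL-05-099 replicate 3 was left out (adjusted p 0.0554 to 0.101). With the pan-leukocyte covariate Ubb was still called (0.98, adjusted p = 0.0469), and the other genes called from these 3 lists were not. Their differences in that fit were 0.33 for Uchl5, 0.28 for Ubxn7, 0.39 for Syvn1, -0.26 for Nfe2l3, -0.16 for Bach1, 0.06 for Zfand2a, 0.03 for Nfe2l2 and 0.00 for Ubqln2. Some kept their size and others did not, in a fit that cannot separate the leukocyte level from treatment.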

How the data were processed

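The authors deposited 1 table with the FPKM of every gene in every library and an estimation status, per the file headers. Libraries were made from poly(A) RNA with a strand-marking kit, per the labels' protocols. Reads were demultiplexed with bcl2fastq 2.19 and the build was GRCm38, per the submitters' processing notes. The aligner is not given in the sources used here, nor is the quantifier. Of 48302 rows, 65 that repeat a gene identifier (the longest locus was kept) and 7 genes with a failed estimate were left out. Groups come from the sample titles.

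From these values log2(FPKM + 1) was computed, and genes with at least 1 FPKM in at least 4 of the 8 mouse libraries (11788) were fitted with limma 3.58.1 in R 4.3.3 (mean-variance trend, vehicle and YKL-05-099 only), with Benjamini-Hochberg adjustment over all of them and calls under 0.05. The scripts were tested on simulated data. Whole reads could not be recovered from FPKM, so depth is approximate and no count model was used. Ratios of inducible to constitutive catalytic genes were compared by an exact permutation test over 70 splits, whose smallest two-sided p is 0.0286. The cultured library was compared by its place in the range of the mouse libraries. Alternatives were other pseudocounts, filters and scalings, the cultured library in the fit, a leukocyte covariate, a replicate block and each library left out.

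The members and lists were chosen with earlier results of these data known. Named by rule were the catalytic genes, called genes (up to 4 per role with the smallest p), the highest and lowest gene of each role, the 5 largest cultured differences each way, up to 4 called genes per other list, and Psmb8, Psmb9, Psmb10, Psme1, Psme2, Nfe2l1 and Pomp. Other genes named for their values were chosen after these were seen. Of 13 listed factors without a Psm name, 12 were matched. Positions are GRCm38 positions from the deposited table, 1-based. Gene overlaps come from GENCODE and promoters from RefSeq.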

Additional observations from a re-analysis of the deposited data

Results flagged for a closer look

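In 6 of 102 groups of 4 libraries checked (5.88%), 1 library stood apart from the other 3, with a gap to its nearest neighbour above Dixon's critical share of the group's range. Chance alone gives about 1 in 20 such groups. Vehicle replicate 4 was the one apart in 3 of these: Psmb10 was at 39.3 FPKM there and at 25.0 to 25.8 in the other vehicle libraries, Pomp at 132 against 99.4 to 104.8, and the log2 ratio of Psmb9 to Psmb6 at -3.78 against -4.92 to -4.76. Among the treated libraries, Psmc5 was at 53.9 FPKM in YKL-05-099 replicate 2 against 61.2 to 62.2 in the others, the only constitutive proteasome gene with such a library. Psme2 was at 72.6 FPKM in YKL-05-099 replicate 4 against 84.3 to 85.8. The log2 ratio of Psmb10 to Psmb7 was -1.01 in YKL-05-099 replicate 3 against -1.32 to -1.28.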

How the results depend on the processing

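Against 2 constitutive genes called higher and 3 lower, the counts were 1 and 2 without the filter on low values, 0 and 10 with median-of-ratios scaling, 1 and 4 with quantile normalization, and 0 and 0 with the leukocyte covariate (limma; 14 genes had an unadjusted p under 0.05 with median-of-ratios scaling and 1 with the covariate). With median-of-ratios scaling 24.4% of the 41 constitutive genes were called, against 42.1% of all tested genes. Leaving out 1 library at a time gave 0 to 3 higher and 1 to 5 lower. No called gene reversed its direction in any of the 18 alternatives, 8 uncalled genes were called in at least 1 of them, and 19 uncalled genes changed sign in at least 1 without being called there. The replicate block gave 1 higher and 2 lower: Psma1 (adjusted p = 0.0525) and Psmd10 (0.0811) were not called and, outside the set, Psmb9 was (0.0464). Libraries with the same number did not deviate together as a set. Correlations were -0.0467 to 0.172 between vehicle and treated libraries of 1 number, against -0.266 to 0.158 for other numbers. Of the 4 vehicle libraries, 1 was closest to its own number. No pairing by number was thus seen, but so few libraries cannot exclude one. A block cannot move the differences in the ratios of Psmb8 to Psmb5, Psmb9 to Psmb6 and Psmb10 to Psmb7 (0.56, 0.60 and 0.49). Its adjusted p was 0.25 for each, from a test that flips the signs of the 4 same-number differences. That test cannot reach 0.05, so nothing is concluded from it. Leaving out 1 library gave ranges of 0.47 to 0.73, 0.48 to 0.86 and 0.41 to 0.64, the highest each time without vehicle replicate 4, the library with a treated-like ratio, when p was the smallest that 3 against 4 libraries allow. Without the filter on low values, which tests more genes, Psmb8 (adjusted p = 0.05005), Psmb10 (0.0619), Syvn1 (0.0504), Nfe2l2 (0.0647) and Ubqln2 (0.0732) were also not called. In culture, 9 constitutive genes lay apart upward and 1 downward at 0.5 log2 units, where none did at 1 or 2; the number above the mouse range was 27 to 29 and below it 3 to 5 under the other scalings. FPKM gives no counting error for a single gene, so depth limits are known only through the spread between libraries.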
